A study of Taxus mairei and Taxus cuspidata and Taxus x media with 9 samples.

Results

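Phenylalanine ammonia-lyase (PAL) was represented by 15 of the 33895 unigenes in a co-assembled transcriptome of 3 yew species. A unigene is the set of assembled transcripts taken as 1 gene. The members were all unigenes annotated with the KEGG ortholog of PAL, K10775, or named PAL or PAL with a number. The ortholog found 14 of them, and the name alone added comp18965_c1 (PAL1). Poly(A) RNA of fresh twigs was sequenced, with 3 libraries per species and no treatment. The twigs came from 3-year-old trees of *Taxus media* (a hybrid yew), *T. mairei* and *T. cuspidata* kept in 1 growth chamber. How much wood and needle they held is not stated in the methods of the study. The methods of the study give the number of trees per species but not which trees went into which library, so p-values measure the spread between these libraries.

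PAL removes ammonia from phenylalanine to give trans-cinnamate, the first step of phenylpropanoid metabolism, which feeds lignin in wood and flavonoids in needles. Plants carry PAL as a small gene family whose members differ in tissue and in response to stress. In yews an enzyme of the same family, phenylalanine aminomutase, converts phenylalanine to β-phenylalanine, from which the side chain of taxol is built. No unigene was named PAM or carried K01745, the ortholog of the related histidine ammonia-lyase, so the annotation does not tell an aminomutase from a lyase among the 15. The study's own list for side-chain assembly includes 1 of them, comp13676_c0.

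Levels are given in TPM, the deposited abundance per unit of length on a common total, for all 9 libraries. Differences between species were tested by edgeR's quasi-likelihood test on expected counts, with Benjamini-Hochberg adjustment over the 32624 unigenes tested. Calls needed an adjusted p below 0.05 and a log2 fold change of more than 1 in either direction, and each fold change is that of the first-named species over the second. The table of *T. mairei* replicate 3 has TPM but no counts, so that the test used 8 libraries with 32783233 to 44821305 counts each, 2 of them of *T. mairei*. In RNA of twigs, fewer cells of a type and less RNA per cell cannot be told apart. The needle markers fixed for the check (Rubisco small subunit, light-harvesting proteins and a photosystem I subunit, 40 unigenes) summed to 18883 to 32372 TPM in *T. media*, 2770 to 5071 TPM in *T. mairei* and 36458 to 43030 TPM in *T. cuspidata*. Of these 40 unigenes, 15 were at 0 in all *T. mairei* libraries, 17 in all *T. cuspidata* libraries and 0 in *T. media*. The 5 wood markers (cellulose synthases of the secondary wall and IRX genes) summed to 31.9 to 37.5 TPM in *T. media*, 74.6 to 101 TPM in *T. mairei* and 37.5 to 44.1 TPM in *T. cuspidata*, with none at 0 in a whole species. The higher wood sum of *T. mairei* lay mainly in CESA4 and CESA8, while CESA7 was highest in *T. cuspidata* (0.15 to 0.62 TPM in *T. media*, 0.51 to 1.19 TPM in *T. mairei*, 4.27 to 9.97 TPM in *T. cuspidata*), as was IRX10L. Of the 5 wood markers, 3 were called higher and 1 lower in *T. mairei* than in *T. cuspidata*. The part of these markers in the results below was not tested.

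The 15 PAL unigenes ran from 212 to 2645 bp. Each had 1 transcript, and all 15 passed the filter on low counts. Only 7 had reads in every library, and 5 were at 0 in every library of at least 1 species. Counts were fractional in at least 1 library for 9 members and whole in every library for 6. An expected count is fractional where a read fits more than 1 sequence, and which sequences these were, inside or outside the family, was not tested. The counts of these 9 are therefore uncertain, as are those of the 23.1% of all unigenes with reads that also had fractional counts. The highest mean TPM was found in *T. media* for 3 members, in *T. mairei* for 8 and in *T. cuspidata* for 4. The same counts over all unigenes are not given here, so these counts do not set the family apart from other unigenes.

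**Figure D1:**
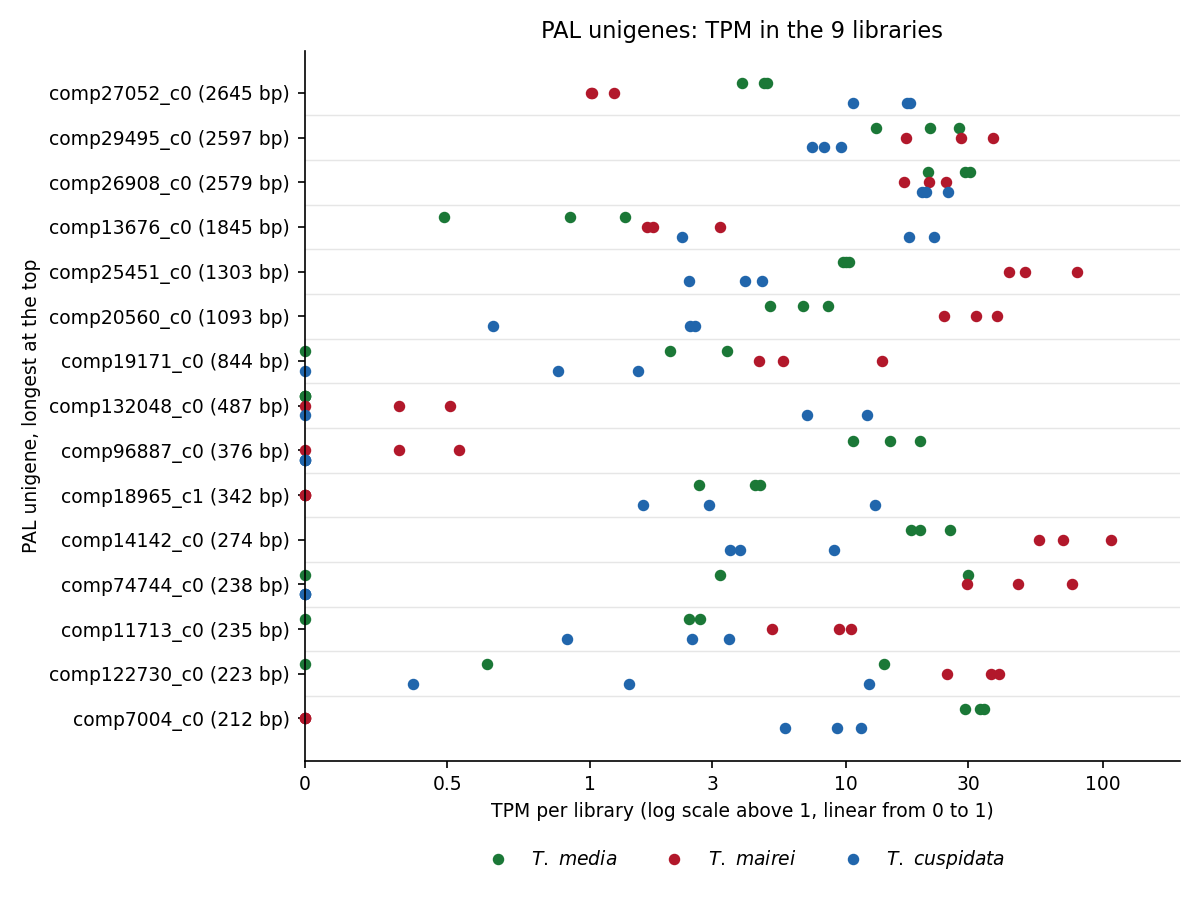
TPM of the 15 PAL unigenes (rows, longest at the top, with length in bp) in the 9 libraries, 1 point per library, on an axis that is linear from 0 to 1 and logarithmic above. The *T. mairei* points lie to the right of all others for 6 unigenes, the *T. media* points for 2 and the *T. cuspidata* points for 1, and 5 unigenes have all points of a species at 0. The same counts over all unigenes are not given.

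The 4 longest unigenes did not share an order of the species. The level of comp26908_c0 (2579 bp, whole counts) was much alike in all, with 30.5, 20.9 and 29.0 TPM in *T. media*, 16.8, 21.1 and 24.6 TPM in *T. mairei*, and 24.9, 19.8 and 20.5 TPM in *T. cuspidata*. All 3 species overlapped in this unigene. Its log2 fold changes were -0.20 ± 0.19 (SE) for *T. media* vs. *T. mairei*, 0.22 ± 0.17 for *T. media* vs. *T. cuspidata* and 0.42 ± 0.19 for *T. mairei* vs. *T. cuspidata*. None passed edgeR's quasi-likelihood test, with adjusted p of 0.405, 0.357 and 0.0905. On the TPM scale the first and the last of these values had the opposite sign, 0.35 and -0.07.

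The longest member, comp27052_c0 (2645 bp, whole counts), was highest in *T. cuspidata*. It had 3.93, 4.90 and 4.80 TPM in *T. media*, 1.24, 1.02 and 1.01 TPM in *T. mairei*, and 10.7, 17.2 and 17.7 TPM in *T. cuspidata*. The libraries of the 3 species formed separate ranges, with *T. mairei* lowest. All 3 differences were called by edgeR's quasi-likelihood test: 1.31 ± 0.27 (adjusted p = 0.00386) for *T. media* vs. *T. mairei*, -1.82 ± 0.23 (adjusted p = 0.000742) for *T. media* vs. *T. cuspidata* and -3.13 ± 0.29 (adjusted p = 5.9e-05) for *T. mairei* vs. *T. cuspidata*.

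Next in length, comp29495_c0 (2597 bp, fractional counts in 4 of 8 libraries), was lowest in *T. cuspidata*. Its values were 27.5, 13.1 and 21.2 TPM in *T. media*, 28.2, 37.4 and 17.2 TPM in *T. mairei*, and 8.22, 9.55 and 7.35 TPM in *T. cuspidata*. Every *T. media* and *T. mairei* library lay above every *T. cuspidata* library, while *T. media* and *T. mairei* overlapped. The log2 fold changes were 1.21 ± 0.26 for *T. media* vs. *T. cuspidata* and 2.59 ± 0.28 for *T. mairei* vs. *T. cuspidata* (adjusted p of 0.00761 and 0.000141, edgeR's quasi-likelihood test). *T. media* vs. *T. mairei* was called at -1.38 ± 0.28 (adjusted p = 0.00373), but the limma test on TPM gave -0.40 and made no call. Without *T. media* replicate 1, *T. media* vs. *T. cuspidata* fell under the fold threshold, at 0.98.

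The side-chain unigene, comp13676_c0 (1845 bp, whole counts), was low outside *T. cuspidata*. It had 0.49, 1.37 and 0.93 TPM in *T. media*, 1.68, 1.76 and 3.23 TPM in *T. mairei*, and 2.29, 22.0 and 17.6 TPM in *T. cuspidata*, from 47, 99 and 78 reads in *T. media*, 236 and 213 in *T. mairei*, and 180, 2034 and 1657 in *T. cuspidata*. On the TPM scale *T. cuspidata* replicate 1 therefore lay within the *T. mairei* range and above all *T. media* libraries. By reads, with 180, it was below the 236 and 213 of *T. mairei*. The other 2 *T. cuspidata* libraries lay above every library of both other species. The fold change was -4.00 ± 0.81 for *T. media* vs. *T. cuspidata* (adjusted p = 0.00605, edgeR's quasi-likelihood test), and the call held in all 19 alternatives, which ran from -4.52 to -2.56. *T. mairei* vs. *T. cuspidata* was called at -2.41 ± 0.87 (adjusted p = 0.0423), and *T. media* vs. *T. mairei* was not, at -1.59 ± 0.81 (adjusted p = 0.131), although every *T. mairei* library lay above every *T. media* library. The call for *T. mairei* vs. *T. cuspidata* was lost in 9 of 19 alternatives. In edgeR fits without 1 library it was lost at -1.96 (adjusted p = 0.101) without *T. cuspidata* replicate 2, at -2.20 (0.0855) without replicate 3, at -2.36 (0.168) and -2.45 (0.156) without *T. mairei* replicates 1 and 2, and at -2.41 (0.0539) and -2.42 (0.0625) without *T. media* replicates 2 and 3.

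**Figure D2:**
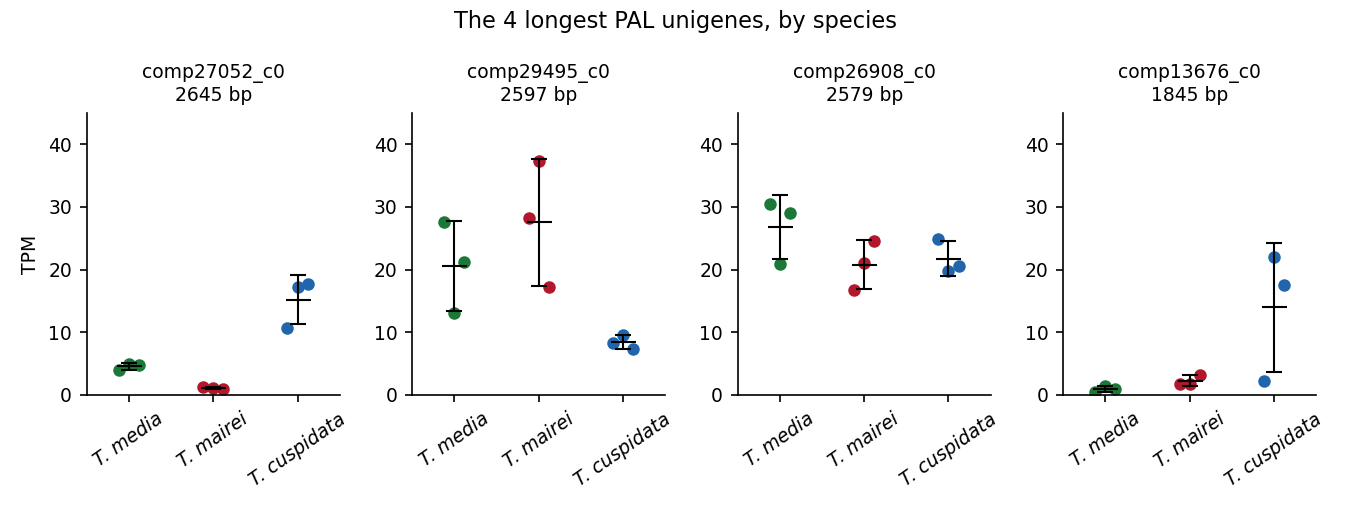
TPM of the 4 longest PAL unigenes in each species. Points are libraries, and the bars give the mean ± SD of 3 libraries: comp26908_c0 lies between 16.8 and 30.5 TPM throughout, comp27052_c0 is highest and comp29495_c0 lowest in *T. cuspidata*, and the *T. cuspidata* libraries of comp13676_c0 spread from 2.29 to 22.0 TPM.

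*T. cuspidata* replicate 1 was the lowest of its 3 libraries for 9 of the 15 members and the highest for 1, with 2 at 0 throughout the species. With that library left out, the number of members called was 10 for *T. media* vs. *T. mairei*, 9 for *T. media* vs. *T. cuspidata* and 11 for *T. mairei* vs. *T. cuspidata*, against 8, 9 and 10 with it.

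A group of shorter unigenes had its highest levels in *T. mairei* and its lowest in *T. cuspidata*. In comp25451_c0 (1303 bp) TPM were 9.76, 9.97 and 10.3 in *T. media*, 49.7, 43.1 and 79.6 in *T. mairei*, and 2.43, 4.05 and 4.68 in *T. cuspidata*. In comp20560_c0 (1093 bp) they were 5.07, 6.81 and 8.53 in *T. media*, 32.1, 24.1 and 38.9 in *T. mairei*, and 0.66, 2.58 and 2.46 in *T. cuspidata*. In comp14142_c0 (274 bp), the member with the highest mean TPM over all libraries, they were 25.4, 18.0 and 19.5 in *T. media*, 70.4, 56.7 and 108 in *T. mairei*, and 3.85, 3.51 and 8.97 in *T. cuspidata*. The species did not overlap in any of the 3 unigenes, and *T. media* lay between the others each time.

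All 9 differences of these 3 unigenes were called by edgeR's quasi-likelihood test. *T. media* vs. *T. mairei* gave -2.92 ± 0.26 (adjusted p = 6.6e-05) in comp25451_c0, -2.74 ± 0.51 (0.00242) in comp20560_c0 and -2.30 ± 0.41 (0.00213) in comp14142_c0. *T. mairei* vs. *T. cuspidata* gave 4.25 ± 0.27 (adjusted p = 1e-05), 4.49 ± 0.54 (0.000229) and 4.14 ± 0.45 (0.000129) in the same order of unigenes. *T. media* vs. *T. cuspidata* gave 1.34 ± 0.24 (adjusted p = 0.00337), 1.75 ± 0.47 (0.0216) and 1.84 ± 0.40 (0.00883). The call of comp20560_c0 in this last comparison was lost at 1.75 (adjusted p = 0.0513) and 1.52 (0.0700) when *T. media* replicate 2 or 3 was left out. Over the 9 libraries, log2(TPM + 1) of comp25451_c0 had a Pearson r of 0.987 with comp20560_c0 and 0.969 with comp14142_c0. Counts of comp25451_c0 and comp20560_c0 were fractional in 7 and 8 of 8 libraries, and whether they shared reads with each other was not tested. The points also share species, and no p is given.

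Another 3 members had every *T. mairei* library above both other species in TPM but passed the test in no comparison. In comp19171_c0 (844 bp) TPM were 0, 3.42 and 2.06 in *T. media*, 5.68, 4.59 and 13.8 in *T. mairei*, and 0, 0.89 and 1.54 in *T. cuspidata*. In comp122730_c0 (223 bp) they were 0, 0.64 and 14.1 in *T. media*, 36.8, 24.7 and 39.3 in *T. mairei*, and 0.38, 1.42 and 12.3 in *T. cuspidata*. In comp11713_c0 (235 bp) they were 2.69, 2.43 and 0 in *T. media*, 5.12, 9.40 and 10.4 in *T. mairei*, and 0.92, 2.51 and 3.49 in *T. cuspidata*. Single libraries of *T. media* and *T. cuspidata* were far from the rest of their species in comp122730_c0. Adjusted p in edgeR's quasi-likelihood test lay between 0.0516 and 0.249 for *T. media* vs. *T. mairei*. In the comparison of *T. mairei* with *T. cuspidata* they lay between 0.0859 and 0.103. With reads of *T. mairei* replicate 3 recovered from its RPKM and added to the fit, comp122730_c0 and comp11713_c0 were called in both comparisons and comp19171_c0 in *T. mairei* vs. *T. cuspidata*.

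The remaining 5 members were at 0 in every library of a species. In comp7004_c0 (PAL5, 212 bp) TPM were 29.1, 34.4 and 33.2 in *T. media*, 0 in all 3 *T. mairei* libraries, and 5.76, 9.19 and 11.4 in *T. cuspidata*. In comp18965_c1 (PAL1, 342 bp) they were 4.42, 2.66 and 4.61 in *T. media*, 0 in *T. mairei*, and 2.93, 1.62 and 12.9 in *T. cuspidata*. In comp96887_c0 (376 bp) they were 19.4, 10.7 and 14.8 in *T. media*, 0.33, 0.54 and 0 in *T. mairei*, and 0 in *T. cuspidata*. In each, a single species was without reads.

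Folds against a species at 0 are lower bounds, set against 3 counts summed over its libraries with counts, and cover counting error only. Whether reads of the species at 0 fell on another unigene of the co-assembly was not tested. By this measure comp7004_c0 was at least 30.1-fold higher in *T. media* than in *T. mairei* and at least 8.97-fold lower in *T. mairei* than in *T. cuspidata*. For comp18965_c1 the bounds against *T. mairei* were at least 18.5-fold higher in *T. media* and at least 29.7-fold higher in *T. cuspidata*. For comp96887_c0 *T. media* was at least 137-fold and *T. mairei*, with 12 reads, at least 6.23-fold higher than *T. cuspidata*. The 12 reads came from *T. mairei* replicates 1 and 2, and 6.23-fold is a bound for these only. Replicate 3 was at 0 TPM, as was every *T. cuspidata* library, so the 2 species overlapped. All 6 of these differences against a species at 0 were called by edgeR's quasi-likelihood test, with adjusted p from 0.000284 to 0.00998. The call of comp96887_c0 for *T. mairei* vs. *T. cuspidata* was absent from limma on TPM, where the difference was 0.34.

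Between species that both had reads, comp96887_c0 was called at 4.38 ± 0.55 (adjusted p = 0.00109, edgeR's quasi-likelihood test) for *T. media* vs. *T. mairei*. In comp7004_c0 *T. media* vs. *T. cuspidata* was called at 1.77 ± 0.46 (adjusted p = 0.0215). That call was lost without *T. media* replicate 2 (1.72, adjusted p = 0.0657) or 3 (1.71, 0.0709), and without *T. cuspidata* replicate 2 (1.78, 0.0561). In comp18965_c1 the difference was -0.69 ± 0.80 and was not called (adjusted p = 0.551).

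The last of these 5 were less even within a species. In comp74744_c0 (PAL1, 238 bp) TPM were 29.9, 0 and 3.21 in *T. media*, 47.0, 76.1 and 29.7 in *T. mairei*, and 0 in *T. cuspidata*. *T. mairei* was at least 230-fold higher than *T. cuspidata* and was called (adjusted p = 0.00883, edgeR's quasi-likelihood test), while *T. media*, at least 29.1-fold higher, was not (0.0571). In comp132048_c0 (effective length 288 bp) TPM were 0 in *T. media*, 0.33, 0 and 0.51 in *T. mairei*, and 0, 12.1 and 7.05 in *T. cuspidata*. *T. media* was at least 105-fold lower than *T. cuspidata* and was called at an adjusted p of 0.0412, although the library of *T. cuspidata* with no reads overlapped *T. media*. That call was lost in 9 of 15 alternatives, among them every fit without a *T. media* library (adjusted p of 0.0814 to 0.0892) or a *T. mairei* library (0.0579 and 0.0589).

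Across the family, 8 members were called for *T. media* vs. *T. mairei*, 4 of 15 higher in *T. media* and 4 lower. Of all unigenes tested, 20.8% were called higher in *T. media*, and 23.5% lower. For *T. media* vs. *T. cuspidata*, 6 of 15 were higher in *T. media* and 3 lower, beside 15.7% and 10.1% of all unigenes. For *T. mairei* vs. *T. cuspidata*, 6 of 15 were higher in *T. mairei* and 4 lower, beside 27.8% and 21.5%. With 15 members, each of these shares moves by several percentage points with 1 call, and the share called in the first comparison, 26.7% in each direction, was near that of all unigenes. Limma on log2(TPM + 1) called 4 members higher and 7 lower in *T. media* than in *T. mairei*, where it called 33.9% and 18.1% of all unigenes. The median log2 fold change of the members was -2.19, 1.06 and 2.59 in the order of the comparisons, beside 0.02, 0.04 and 0.06 for all unigenes tested. With the members at 0 set to their bounds the first median was -2.07 and the others did not move. The comparisons share libraries and are not independent of each other. Members that are pieces of 1 gene would be counted more than once here, and which of them are was not tested.

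**Figure D3:**
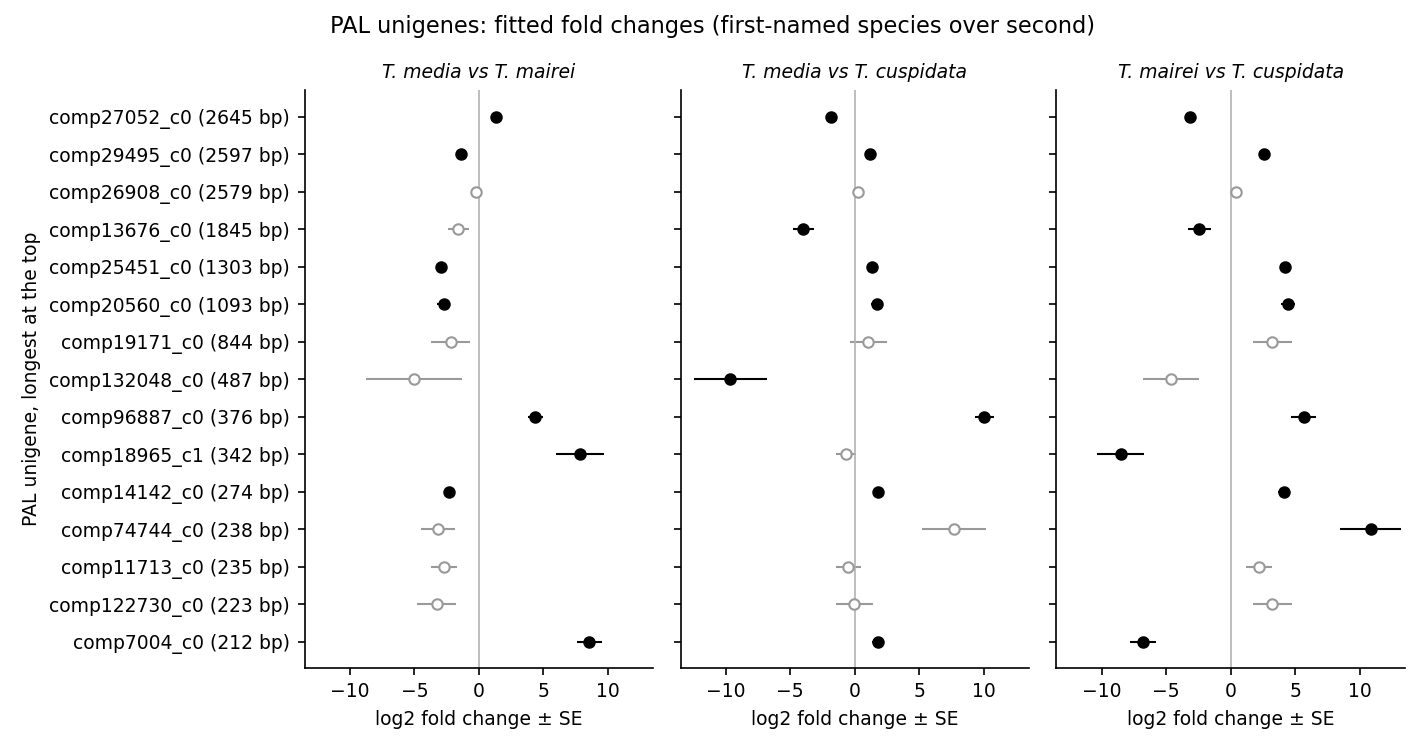
Fitted log2 fold changes ± SE of the 15 PAL unigenes in the 3 comparisons, first-named species over the second. Filled points are called and open points are not, with 8, 9 and 10 filled from left to right; values beyond about 5 on either side come from unigenes at 0 in a species, where the fitted size is no bound.

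Summed over the 15 unigenes, PAL was highest in *T. mairei* on the TPM scale. The sums were 188, 129 and 166 TPM in *T. media* (161 ± 29.8, SD, n = 3), 295, 300 and 366 TPM in *T. mairei* (321 ± 39.5) and 63.0, 106 and 128 TPM in *T. cuspidata* (99.2 ± 33.1). No libraries of different species overlapped, but the lowest *T. media* sum, 129.19 TPM, stood next to the highest of *T. cuspidata*, 128.00 TPM. The mean of *T. media* was 1.99-fold lower than that of *T. mairei* and 1.63-fold higher than that of *T. cuspidata*, and that of *T. mairei* was 3.23-fold higher than that of *T. cuspidata*. As a sum over chosen members it was given no test. On TMM-normalised counts, which are not per length, the log2 ratio of *T. media* to *T. cuspidata* was -0.0015, and their libraries overlapped.

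On the TPM scale the species differed mainly in the shorter unigenes. The 3 members over 2000 bp summed to 51.9 ± 11.8 TPM in *T. media*, 49.5 ± 8.81 TPM in *T. mairei* and 45.3 ± 1.40 TPM in *T. cuspidata*. These differed by less than the SD of *T. media*. On TMM-normalised counts the same 3 were highest in *T. mairei*, with 117 to 180 CPM in *T. media*, 224 to 293 CPM in *T. mairei* and 136 to 150 CPM in *T. cuspidata*, and no overlap of *T. mairei* with the others. The 7 of intermediate length summed to 34.9 to 41.2 TPM in *T. media*, 74.1 to 136 TPM in *T. mairei* and 8.31 to 46.3 TPM in *T. cuspidata*. The 5 with an effective length under 100 bp, the length over which a read can start, summed to 70.8 ± 15.8, 171 ± 14.6 and 21.2 ± 13.2 TPM in the same order of species.

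Those 5 unigenes held 42.1 to 46.3% of the PAL TPM in *T. media*, 51.2 to 55.5% in *T. mairei* and 15.6 to 28.2% in *T. cuspidata*. They held only 1.94 to 2.48%, 4.03 to 4.32% and 0.434 to 1.05% of the PAL counts in these species. Division by a short effective length gives few reads a large TPM. Without the 5, the sums were 90.3 ± 14.5 TPM in *T. media*, 149 ± 25.4 TPM in *T. mairei* and 77.9 ± 22.4 TPM in *T. cuspidata*.

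**Figure D4:**
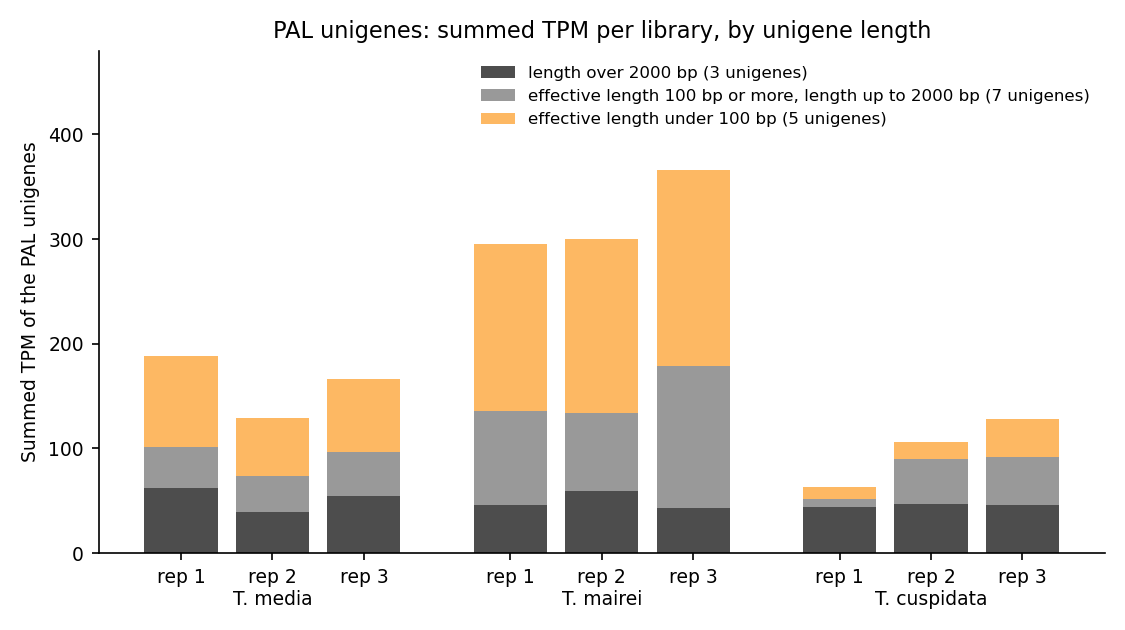
Summed TPM of the PAL unigenes in each library, split by length class. On this scale the dark segments (3 unigenes over 2000 bp) differ little between species, between 38.9 and 61.9 TPM, while the segments of shorter unigenes are tallest in the 3 *T. mairei* libraries.

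Counted as reads, comp26908_c0 led in *T. media* and *T. cuspidata* and comp29495_c0 in *T. mairei*. In *T. media*, comp26908_c0 held 42.4% and comp29495_c0 33.3% of the PAL counts. In *T. mairei*, comp29495_c0 held 35.7%, comp25451_c0 23.7% and comp26908_c0 20.5%. In *T. cuspidata*, comp26908_c0 held 35.8%, comp27052_c0 26.3%, comp13676_c0 16.7% and comp29495_c0 14.0%. By TPM the leading member was comp7004_c0 in *T. media*, comp14142_c0 in *T. mairei* and comp26908_c0 in *T. cuspidata*.

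Among 10229 named unigenes outside the family with a mean of at least 5 TPM, those most like comp13676_c0 over the 9 libraries were sought by Pearson's r of log2(TPM + 1). The 5 highest were comp18741_c0 (frr, ribosome recycling factor, r = 0.975), comp6066_c0 (TAX10, r = 0.963), comp28838_c1 (TAT, r = 0.949), comp24243_c0 (DAG, r = 0.937) and comp23468_c0 (RCE1, r = 0.936). The deposited terms place both TAX10 and TAT in paclitaxel biosynthesis, TAX10 as an acyltransferase and TAT as the enzyme that acetylates taxadienol, an early step. The mean TPM of comp6066_c0 was 0.28 in *T. media*, 1.39 in *T. mairei* and 27.2 in *T. cuspidata*, and *T. cuspidata* replicate 1 had 6.20. That of comp28838_c1 was 60.6, 92.5 and 273 in the same order, with 106 in *T. cuspidata* replicate 1. Among the members themselves, comp132048_c0 was closest to comp13676_c0 (r = 0.968). The 9 points form 3 species and share libraries, so these values describe the pattern only.

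For comp14142_c0, the 5 unigenes most alike had r from 0.987 to 0.989. They were comp27076_c0 (ARA12, a subtilisin-type protease), comp13359_c0 (PERK14), comp29595_c0 (SDR1), comp30047_c0 (dlcB, a dynein light chain) and comp19162_c0 (At3g51990). All had their highest mean in *T. mairei* and their lowest in *T. cuspidata*, from 43.3 against 16.1 TPM in comp30047_c0 to 24.2 against 1.23 TPM in comp27076_c0.

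Enzymes that act next on the PAL product were followed in lists defined by KEGG ortholog. Their counts of calls are set beside the shares of all unigenes called higher and lower in the first-named species, which in the order of the comparisons were 20.8% and 23.5%, 15.7% and 10.1%, and 27.8% and 21.5%. The balance of calls depended on the scale. Over all lists together, with the upstream and kelch F-box unigenes below included, 71 unigenes were tested. Of these, 19 were called higher and 19 lower in *T. media* than in *T. mairei*, 26.8% each. In *T. mairei* against *T. cuspidata*, 21 were higher and 11 lower, 29.6% and 15.5%. Limma on log2(TPM + 1) tested 72. It called 28 higher and 14 lower in *T. media* than in *T. mairei*, and 16 and 22 in *T. mairei* against *T. cuspidata*. These are 38.9% and 19.4%, and 22.2% and 30.6%. By limma the shares of all unigenes were 33.9% and 18.1%, and 21.9% and 31.5%. Of 13 unigenes for cinnamate 4-hydroxylase (C4H) and 4-coumarate-CoA ligase (4CL), 12 were tested. For *T. media* vs. *T. mairei* 2 were higher and 4 lower in *T. media*, for *T. media* vs. *T. cuspidata* 5 were higher, and for *T. mairei* vs. *T. cuspidata* 5 were higher and 1 lower in *T. mairei*. The share higher in *T. media* than in *T. cuspidata*, 41.7%, was above the 15.7% of all unigenes. By limma on TPM the numbers were 5 and 2 in *T. media* against *T. mairei*, or 4 and 4 by edgeR with library sizes alone, and 3 and 3 in *T. mairei* against *T. cuspidata*. The median log2 fold changes were -0.85, 0.86 and 0.30. C4H summed to 129 ± 24.6 TPM in *T. media*, 257 ± 187 TPM in *T. mairei* and 66.7 ± 5.76 TPM in *T. cuspidata*, with *T. mairei* libraries from 119 to 470 TPM. 4CL summed to 183 ± 24.1 TPM in *T. media*, 109 ± 18.5 TPM in *T. mairei* and 199 ± 2.89 TPM in *T. cuspidata*, so that *T. mairei* was lowest.

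In the highest 4CL unigene, comp24332_c0, TPM averaged 45.7 ± 7.48 in *T. media*, 5.38 ± 1.11 in *T. mairei* and 64.7 ± 4.39 in *T. cuspidata*. It was called at 2.31 for *T. media* vs. *T. mairei*, while *T. mairei* vs. *T. cuspidata* was called at -2.88. The highest C4H unigene, comp29581_c0 (CYP73A4), averaged 84.6 ± 14.7 TPM in *T. media*, 21.8 ± 9.77 TPM in *T. mairei* and 58.6 ± 4.81 TPM in *T. cuspidata*, and no comparison was called, with 0.96, 0.45 and -0.51. TPM gave larger differences than counts here: on the TPM scale the median of all unigenes was 0.61 for *T. media* vs. *T. mairei*, 0.11 for *T. media* vs. *T. cuspidata* and -0.41 for *T. mairei* vs. *T. cuspidata*.

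Steps on the way to lignin monomers held 38 unigenes. In *T. media* vs. *T. mairei* 13 were higher and 8 lower, in *T. media* vs. *T. cuspidata* 9 and 4, and in *T. mairei* vs. *T. cuspidata* 10 and 8. The first of these are 34.2% and 21.1%, beside 20.8% and 23.5% of all unigenes. The last, 26.3% and 21.1%, were near the shares of all unigenes, 27.8% and 21.5%. Limma on TPM turned the balance to 7 and 15, or 18.4% and 39.5%. It turned that of all unigenes the same way, to 21.9% and 31.5%. The cinnamoyl-CoA reductase unigene with the highest level, comp26102_c1 (CCR2), averaged 599 ± 54.8 TPM in *T. media*, 14.9 ± 2.78 TPM in *T. mairei* and 1070 ± 266 TPM in *T. cuspidata*, with a called fold change of 4.70 for *T. media* vs. *T. mairei*, whereas *T. mairei* vs. *T. cuspidata* was called at -5.64. The cinnamyl-alcohol dehydrogenase comp23505_c0 (CAD7) averaged 112 ± 17.4, 67.4 ± 12.6 and 42.0 ± 2.41 TPM in *T. media*, *T. mairei* and *T. cuspidata*, and was called at 1.87 for *T. media* vs. *T. cuspidata* and 2.05 for *T. mairei* vs. *T. cuspidata*, although limma on TPM gave 0.65 for comp23505_c0 in the second and made no call. The hydroxylases comp23663_c0 (named CYP75B2, K09754) and comp29329_c0 (named CYP71A1, K09755) and the methyltransferase comp19510_c0 (K00588) were called higher in *T. media* than in *T. mairei*, at 2.18, 1.09 and 1.62. The call of comp19510_c0 was lost without *T. mairei* replicate 2 (1.31, adjusted p = 0.0645, edgeR's quasi-likelihood test). Of these, comp23663_c0 was also called at 1.12 for *T. media* vs. *T. cuspidata* and -1.06 for *T. mairei* vs. *T. cuspidata*. Both were near the fold threshold and fell under it at 0.98 without *T. media* replicate 2 and 0.92 without *T. cuspidata* replicate 1 in the first, and at -0.99 and -0.96 without *T. cuspidata* replicates 2 and 3, or -0.94 with the replicate block, in the second.

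Chalcone synthase (K00660), the entry to flavonoids, had its highest sum in *T. media*. The 5 unigenes of this ortholog summed to 982 ± 136 TPM in *T. media*, 335 ± 172 TPM in *T. mairei* and 404 ± 91.9 TPM in *T. cuspidata*. Of 4 tested, 2 were higher and 1 lower in *T. media* than in *T. mairei*, 4 were higher in *T. media* than in *T. cuspidata*, and 1 was higher in *T. mairei* than in *T. cuspidata*. Of all unigenes, 15.7% were called higher in *T. media* than in *T. cuspidata*. With 4 unigenes of 1 ortholog, no test was run of any of these counts against the shares of all unigenes. The highest, comp30084_c1 (CSF7), averaged 519 ± 48.2, 94.4 ± 46.0 and 237 ± 35.4 TPM in *T. media*, *T. mairei* and *T. cuspidata*, and *T. media* was called higher than *T. mairei* at 1.46 and higher than *T. cuspidata* at 1.05, or 0.94 and not called without *T. cuspidata* replicate 2. PAL and chalcone synthase thus had their highest sums in different species.

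**Figure D5:**
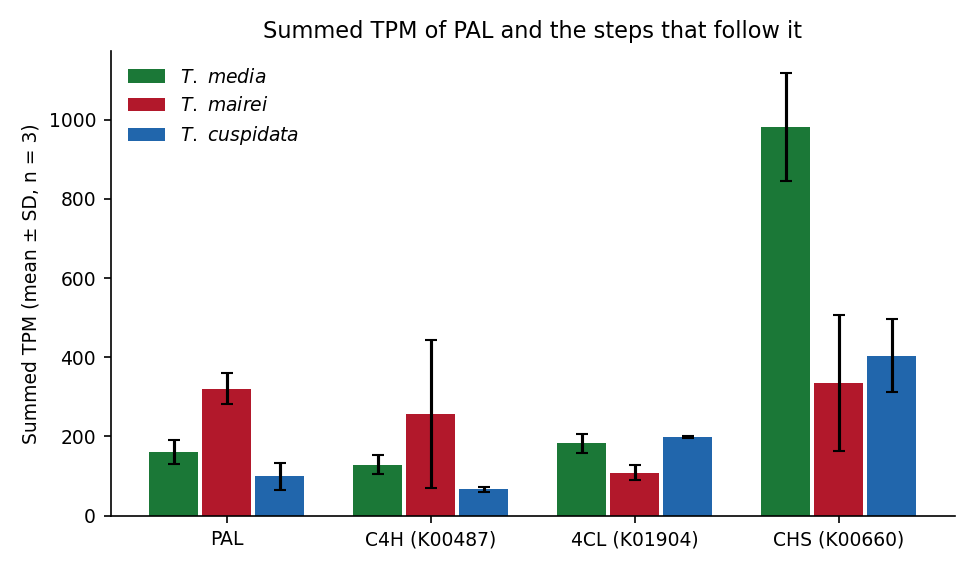
Summed TPM (mean ± SD, n = 3 libraries) of the PAL unigenes and of the orthologs for C4H, 4CL and chalcone synthase (CHS) in each species. PAL is highest in *T. mairei* (321 TPM), 4CL is lowest there (109 TPM), CHS is highest in *T. media* (982 TPM), and the *T. mairei* bar of C4H has an SD of 187 TPM.

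Upstream, 14 unigenes of the shikimate pathway and phenylalanine synthesis were tested. In *T. media* vs. *T. mairei* 2 were higher and 4 lower, in *T. media* vs. *T. cuspidata* 1 and 2, and in *T. mairei* vs. *T. cuspidata* 3 and 2. Of 14, these are near or below the shares of all unigenes called, except that 28.6% were lower in *T. media* than in *T. mairei* beside 23.5%, and 14.3% lower than in *T. cuspidata* beside 10.1%. By limma on TPM the numbers were 5 and 3, 1 and 0, and 3 and 3. The limma shares of all unigenes were 33.9% and 18.1%, 17.2% and 9.09%, and 21.9% and 31.5% in the same order. Median fold changes lay between -0.07 and 0.01. The entry enzyme comp23330_c0 (DAHPS2) averaged 44.4 ± 12.5, 41.4 ± 26.3 and 99.1 ± 6.98 TPM in *T. media*, *T. mairei* and *T. cuspidata*, and was called at -1.24 for *T. media* vs. *T. cuspidata*, a call that limma on log2(TPM + 1) did not make (-1.18, adjusted p = 0.0655). The shikimate kinase comp26765_c0 (SK3) averaged 29.3 ± 5.65, 28.8 ± 5.40 and 52.7 ± 9.90 TPM in the same order, and was called at -1.05 for *T. media* vs. *T. cuspidata*. This value was under the fold threshold with library sizes alone (-0.86), in limma on TPM (-0.83), without *T. media* replicate 1 (-0.91) and without *T. cuspidata* replicate 1 (-0.96). Its call for *T. media* vs. *T. mairei*, at -1.01, had no counterpart in TPM, where the difference was 0.02, and was lost with library sizes alone (-0.82) and without *T. media* replicate 1 (-0.86) or *T. mairei* replicate 1 (-0.96). Highest-level unigenes of the other 4 steps found (comp28166_c0, comp30297_c0, comp27428_c0 and comp28262_c0) were called in no comparison.

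Kelch F-box proteins target PAL for breakdown in Arabidopsis, and 3 unigenes bore names of that group. Of these, 2 were called lower in *T. media* than in *T. mairei* and 2 higher in *T. mairei* than in *T. cuspidata*, beside 23.5% and 27.8% of all unigenes. Limma on TPM called 2 and 1, beside 18.1% and 21.9% of all unigenes. The unigene comp20498_c0 (At1g15670) averaged 9.47 ± 1.55 TPM in *T. media*, 28.1 ± 4.24 TPM in *T. mairei* and 15.5 ± 3.67 TPM in *T. cuspidata*, and was called at -2.41 for *T. media* vs. *T. mairei*, while *T. mairei* vs. *T. cuspidata* was called at 1.49, where limma on TPM gave 0.83 and made no call. For *T. media* vs. *T. cuspidata* it gave -0.92, which is under the fold threshold. The unigene comp29586_c0 (At1g80440) averaged 29.7 ± 6.04, 22.0 ± 5.08 and 20.2 ± 1.46 TPM in *T. media*, *T. mairei* and *T. cuspidata* and was not called. No unigene was named BAPT or DBTNBT, the names fixed for the last acyltransferases of the taxol side chain. That list therefore held 0 members. It was searched by these names only, and whether such an enzyme carries another name here was not tested. The acyltransferase comp6066_c0 (TAX10), placed in paclitaxel biosynthesis by the deposited terms, was not on it.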

How the data were processed

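RNA of 9 twig libraries (3 per species) was sequenced by the authors, who assembled all reads together with Trinity. The counting tool is not given in the sources used here. For 8 libraries the authors deposited expected counts (estimated reads per unigene, partly fractional) beside TPM, while for *T. mairei* replicate 3 the deposited columns are TPM and RPKM. The deposited annotation gave the KEGG orthologs and names. After rounding, the expected counts were tested by edgeR 4.0.16 (R 4.3.3), using filterByExpr by species, TMM factors and 1 mean per species. The test had been planned on all 9 libraries and holds 8, since the ninth has no counts. The common biological coefficient of variation was 0.37. Scripts were tested on simulated data. Alternatives used DESeq2 1.42.0, limma 3.58.1 on log2(TPM + 1) or log2(TPM + 0.1), other filters and factors, and leaving out each library. In 1 alternative, *T. mairei* replicate 3 entered with reads recovered from RPKM, assuming a library of 37680500 reads; 97.4% of 3586 low values then came out whole within 0.1.

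Named unigenes are all 15 PAL members, the highest mean TPM of each ortholog or name in each list, and the 5 named unigenes most like comp14142_c0 and comp13676_c0. Members and lists were chosen with earlier results of these data known. No sequences or genome coordinates were used here.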

Additional observations from a re-analysis of the deposited data

How the results depend on the processing

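Of the 45 values of 15 PAL unigenes in 3 comparisons, 27 were called. Over 19 alternatives, 20 of the 27 kept the call wherever they were tested and 7 lost it at least once, and 10 of the 18 others gained one. No called value of a PAL unigene changed sign. The number called stayed between 6 and 11 for *T. media* vs. *T. mairei* (8 as reported), 6 and 10 for *T. media* vs. *T. cuspidata* (9) and 8 and 13 for *T. mairei* vs. *T. cuspidata* (10), within 1.5 times each count. Leaving out each library gave 8 to 10, 6 to 9 and 9 to 11. A mean count of at least 50 left 10 PAL unigenes to test.

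Same-numbered libraries of different species did not deviate together (r from -0.0878 to 0.049). With 2 or 3 libraries per species, deviations from the species mean are tied to each other, and *T. mairei* replicate 3 was not included. The check therefore cannot decide whether the numbers mark a pairing. With the replicate block the counts were 9, 7 and 11.

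In RPKM, the log2 ratio of the sums moved to -1.50 for *T. media* vs. *T. mairei* and to 2.33 for *T. mairei* vs. *T. cuspidata*. In TPM without unigenes of effective length under 100 bp, the ratio for *T. mairei* vs. *T. cuspidata* moved to 0.94. In TMM-normalised CPM the log2 ratio of the sums changed sign to -0.0015 (*T. media* vs. *T. cuspidata*). With each library left out, the log2 ratio of the TPM sums ran from -1.12 to -0.86, 0.46 to 0.93 and 1.45 to 1.92 in the 3 comparisons.

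The other changes of sign were in values near 0 or not called, apart from the shikimate kinase comp26765_c0. By limma on log2(TPM + 1), with or without a filter, and on log2(TPM + 0.1), comp26908_c0 moved to 0.35 and 0.36 for *T. media* vs. *T. mairei* and to -0.071 and -0.074 for *T. mairei* vs. *T. cuspidata*, and comp26765_c0 to 0.025 and 0.026 for *T. media* vs. *T. mairei*. For *T. media* vs. *T. cuspidata*, comp122730_c0 moved to 0.15 with library sizes alone and to 0.47, 0.58 or 2.11 without *T. media* replicate 2, *T. media* replicate 1 or *T. cuspidata* replicate 3, comp18965_c1 to 0.71 without *T. cuspidata* replicate 3, and comp11713_c0 to 0.054 without *T. media* replicate 3. With each library left out, these 3 ran from -3.94 to 2.11, -1.15 to 0.71 and -0.96 to 0.054. The cause was not tested. Fits without a *T. mairei* library hold 1 of that species, assumed to vary like the others. PAL unigenes with few or fractional counts are the least certain.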
